A study of Mus musculus with 6 samples.

Results

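The genes of the interleukin-1 (IL-1) family and of the inflammasome were followed in single-cell RNA sequencing (scRNA-seq) of immune cells from CT26 tumors. The set held 10 genes, Il1a, Il1b, Il1rn, Il1r2, Il18, Il18bp, Nlrp3, Casp1, Casp4 and Gsdmd, out of 20649 genes in the count matrix, and was chosen by name for the role of each gene. CT26 is a mouse colon carcinoma line, and BALB/c mice carried it as a subcutaneous tumor. Tumors were injected with exoASO-STAT6, exosomes loaded with an antisense oligonucleotide against Stat6, or with exoASO-Scramble, the same carrier with a control oligonucleotide, and 3 tumors per treatment were profiled. All mice therefore had tumors and exosome injections, every other day for 3 doses, with tumors taken 24 hours after the last. CD45-positive cells, which are leukocytes of all kinds, were enriched from digested tumors and run on a 10x 3′ v3.1 chemistry, with no further sort named. The study's methods give its BALB/c mice as female and 6 to 8 weeks old when purchased, and the ages at tumor collection are not given in the sources used here.

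The matrix held 9235 cell barcodes and 140562949 unique molecular identifiers (UMIs, each a counted transcript), with a median of 11846 UMIs per barcode. Barcodes end in a number from 3 to 8, taken as 6 libraries, which held between 11492757 and 33902084 UMIs. The labels do not tie these numbers to tumors, so the treatment of each library is unknown and exoASO-STAT6 was not compared with exoASO-Scramble. A total of 16 barcode sequences occurred in more than 1 library and were kept as separate cells. The libraries are named below by their suffix, are described singly and are not replicates of a group. No p-values were computed. Intervals of 95% are exact and cover counting error only.

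IL-1α and IL-1β, encoded by Il1a and Il1b, are inflammatory cytokines that act on the same receptor. IL-1β and IL-18 are made as inactive precursors and are cut by caspase-1, the product of Casp1, once a sensor such as NLRP3 has assembled an inflammasome. Caspase-11, the product of Casp4 in the mouse, senses bacterial lipopolysaccharide in the cytosol, and both caspases cleave gasdermin D (Gsdmd), whose fragment forms pores in the cell membrane. The pathway is held in check by the receptor antagonist IL-1Ra (Il1rn), by the decoy receptor IL-1R2 (Il1r2) and by the IL-18 binding protein (Il18bp). Transcript counts do not show processing, secretion or inflammasome assembly.

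The members lie on 6 chromosomes of GRCm38 (GENCODE M21). Il1a (chr2:129299610-129309972, minus strand) and Il1b (chr2:129364570-129371139, minus strand) are separated by 54.597 kb, and Il1rn lies on the same chromosome at chr2:24336853-24351494, on the plus strand. Casp1 (chr9:5298517-5307265) and Casp4 (chr9:5308828-5336783) are neighbours on the plus strand with a gap of 1.562 kb, and Il18 is at chr9:50554827-50581840. Il1r2 is at chr1:40074079-40125231, Il18bp at chr7:102014885-102018690 on the minus strand, Nlrp3 at chr11:59541568-59566956 and Gsdmd at chr15:75862327-75867408, where those with no strand named lie on the plus strand.

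RefSeq promoter entries (GRCm38.p6, 250 bases before to 50 bases after a start) were found for 9 of the 10 members. They are shown for the ligands Il1a, Il1b and Il18, because the ligands are what the inhibitors and the inflammasome act on, and for Nlrp3, Il1rn and Casp4, as the sensor, the antagonist and the caspase with matches to the motifs searched. Each sequence runs 5′ to 3′ over the 150 bases before a start site, and capitals mark motif matches on either strand.
Il1a promoter (chr2:129309973-129310122, minus strand): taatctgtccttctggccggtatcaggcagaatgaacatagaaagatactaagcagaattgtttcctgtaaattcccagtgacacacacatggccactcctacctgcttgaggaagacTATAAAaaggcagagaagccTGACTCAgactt
Il1b promoter (chr2:129371140-129371289, minus strand): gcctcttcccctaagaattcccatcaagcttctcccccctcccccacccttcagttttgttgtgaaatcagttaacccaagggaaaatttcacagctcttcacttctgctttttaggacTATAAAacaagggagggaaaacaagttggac
Il18 promoter (chr9:50554550-50554699, plus strand): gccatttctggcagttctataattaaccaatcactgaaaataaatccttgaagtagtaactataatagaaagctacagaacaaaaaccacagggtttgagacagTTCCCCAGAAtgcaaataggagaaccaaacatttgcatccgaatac
Nlrp3 promoter, second start (chr11:59542536-59542685, plus strand): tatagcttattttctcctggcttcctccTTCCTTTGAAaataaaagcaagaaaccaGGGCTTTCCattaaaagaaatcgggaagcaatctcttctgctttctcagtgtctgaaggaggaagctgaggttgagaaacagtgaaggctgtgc
Il1rn promoter, second start (chr2:24345141-24345290, plus strand): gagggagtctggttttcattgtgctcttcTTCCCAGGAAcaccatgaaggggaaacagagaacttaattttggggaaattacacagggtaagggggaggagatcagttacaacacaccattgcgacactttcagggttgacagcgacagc
Casp4 promoter (chr9:5308699-5308848, plus strand): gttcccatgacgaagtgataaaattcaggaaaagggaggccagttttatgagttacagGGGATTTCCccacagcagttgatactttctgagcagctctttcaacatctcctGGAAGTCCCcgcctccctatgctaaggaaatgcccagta

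The starts shown for Nlrp3 and Il1rn lie inside the annotated gene, and the last 21 bases shown for Casp4 overlap its first annotated exon. Il1a and Il1b share a TATA box, TATAAA, which begins 32 and 31 bases upstream of their starts, and Il1a also has the AP-1 type motif TGANTCA 12 bases upstream. Outside the stretches shown, the promoter entries of Il18 and Il1rn also held TATAAA, so 4 members did, and another entry of Il1rn held the AP-1 type, so 2 members did. The NF-kB type motif GGGNNTTCC begins 92 and 39 bases upstream of the Casp4 start and 94 bases upstream of the Nlrp3 start. A spaced palindrome of the kind that STAT6 prefers, TTCNNNNGAA, begins 46 bases upstream of Il18, 122 bases upstream of Nlrp3 and 121 bases upstream of Il1rn, and the 3-base spacing TTCNNNGAA was found in the promoter entry of Il1r2. Over 32851 mouse promoter entries of the same length, 13.6% held TATAAA, 7.81% the AP-1 type, 5.82% the NF-kB type, 6.95% the STAT6 type and 8.30% the 3-base spacing. These shares are per entry. The 9 members had 13 entries, so a member with several entries had more chances of a match. The interferon type motif GAAANNGAAA, held by 3.44% of promoters, was found in 0 members. No matches overlapped in the stretches shown. These are matches of letters and not measured binding sites.

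Barcodes were placed in 7 gates by single genes. The neutrophil gate (S100a9 of at least 5 UMIs and G0s2 of at least 1) held 857 barcodes, the early monocyte gate (Vcan or Hp with Csf1r) 2724 and the Ly6c2 gate (at least 2 UMIs) 3591. The C1q-high gate (C1qa, C1qb and C1qc together at least 60 per 10000 UMIs) held 3032 barcodes, the Mmp12 macrophage gate (Mmp12 with Csf1r or Adgre1) 2130, the dendritic gate (Flt3) 344 and the lymphocyte gate (Cd3e or Ncr1, with at most 1 UMI of Csf1r and Adgre1 together) 771. Gates overlap, since 3681 barcodes met 1 gate, 2862 met 2 and 956 met 3, and 1452 met none. The gates differ in depth, from a median of 6953 UMIs per barcode in the lymphocyte gate to 20005 in the neutrophil gate.

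The gates were checked against marker lists, from which the genes that define a gate were left out. The summed level of the 8 neutrophil markers left was 1832 counts per 1000000 UMIs (CPM) in the neutrophil gate, with libraries from 1074 to 2343, against 704 in the early monocyte gate and 132 in the lymphocyte gate. However, the same gate held 5 macrophage markers at 3921 CPM, close to the 3980.0 CPM of all barcodes, and 91.6% of its barcodes had at least 2 UMIs of Csf1r and Adgre1. Ly6g, which marks mature mouse neutrophils, was at 3.98 CPM. The gate is therefore called the S100a9/G0s2 gate below, and values are also given for its 72 barcodes with at most 1 UMI of Csf1r and Adgre1, a split chosen after seeing the data. In these 72 barcodes Ly6g had 0 UMIs, and the other 9 markers of the full neutrophil list were higher than in the remaining 785, for example S100a8 at 3133 against 1307 CPM, Csf3r at 224 against 117 and Cxcr2 at 108 against 51.1. Among the 9, S100a9 and G0s2 define the gate by a UMI minimum, which raises their CPM in shallower barcodes. The 72 had a median of 7581 UMIs against 21497 in the 785, so S100a9 and G0s2 are no check on them. The 5 macrophage markers reached 4936 CPM in the C1q-high gate, with libraries from 3871 to 6000.4 that overlapped those of all other myeloid gates except the dendritic gate. Monocyte markers were at 2337 and 2320.3 CPM in the Ly6c2 and early monocyte gates against 1548 in all barcodes, dendritic markers at 822 CPM in the dendritic gate against at most 139 elsewhere, and lymphocyte markers at 7314 CPM in the lymphocyte gate against 1009.8 in all barcodes. The 4 Mmp12 macrophage markers left were at 2921 CPM in the Mmp12 macrophage gate (libraries 2615 to 3731). They were higher in the lymphocyte gate, at 3466 CPM (871 to 7136), where Spp1 alone was at 3224 CPM. This list therefore does not set the Mmp12 macrophage gate apart. Of the dendritic barcodes, 61.0% had at least 2 UMIs of Csf1r and Adgre1. The part of these other markers in the levels below was not tested.

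Il1b was the most abundant member, at 2437 CPM over all barcodes (342530 UMIs). Il1rn followed at 500.4 CPM, Nlrp3 at 319 CPM, Il1a at 249 CPM and Il18bp at 103 CPM. Casp4 (83.5 CPM), Casp1 (74.6 CPM), Gsdmd (51.4 CPM), Il1r2 (37.7 CPM) and Il18 (29.6 CPM) were lower. These levels count 3′ ends, which do not scale with transcript length, but capture may differ between genes, so the main comparisons are of 1 gene between gates. All 10 members passed the filter of at least 100 UMIs, as did 12307 genes.

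A gene was called higher in a gate when its CPM was at least 2-fold that of all barcodes outside it, with the same direction within at least 5 of 6 libraries, and lower at a fold of at most 0.5 by the same rule. In the S100a9/G0s2 gate 1 of 10 members, Il1r2, was higher (0.780% of all genes tested were) and 0 were lower (0.683%). In the early monocyte gate 0 were higher (0.748%) and 0 lower (1.04%), and the same held for the Ly6c2 gate (1.27% and 0.764%), the Mmp12 macrophage gate (0.390% and 0.577%) and the dendritic gate (4.33% and 2.71%). In the C1q-high gate 0 were higher (2.08%) and 1, again Il1r2, was lower (6.62%). In the lymphocyte gate 0 were higher (12.0%) and 6 were lower (18.7%), namely Il1a, Il1b, Il1rn, Il18, Il18bp and Nlrp3. With 10 members a single call is 10% of them, which in the C1q-high gate is close to the share of all genes.

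Below the 2-fold limit, most members had folds above 1 in 3 gates. All 10 had a fold above 1 in the early monocyte gate, with a median of 1.39 against 0.95 over all genes tested, and all 10 did so in the Ly6c2 gate (median 1.22 against 0.99). In the S100a9/G0s2 gate 8 of 10 did, with a median of 1.21 against 0.96, although Il1a (1.22) was higher within 2 of 6 libraries and Il18bp (1.12) within 3. The Ly6c2 result was lost in its 689 barcodes with at most 1 UMI of Csf1r and Adgre1. There 4 of 10 members had a fold above 1 and the median was 0.93. These 689 include the 271 Ly6c2 barcodes that also met the lymphocyte gate. Among barcodes that met exactly 1 gate, 9 of 10 members had a fold above 1 in the Ly6c2 gate (median 1.22). In that subset 7 of 10 did in the early monocyte gate (median 1.17) and 7 of 10 in the S100a9/G0s2 gate (median 1.22). Il1a was at a fold of 0.75 in the latter, higher within 0 of 6 libraries. In the C1q-high gate 2 of 10, Il18bp and Casp1, had a fold above 1 (median 0.79 against 0.99), and in the dendritic gate 1 of 10, Il1r2, did (median 0.67, against a median near 1 over all genes). These folds share barcodes between gates and are descriptions of the pooled libraries.

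**Figure D1:**
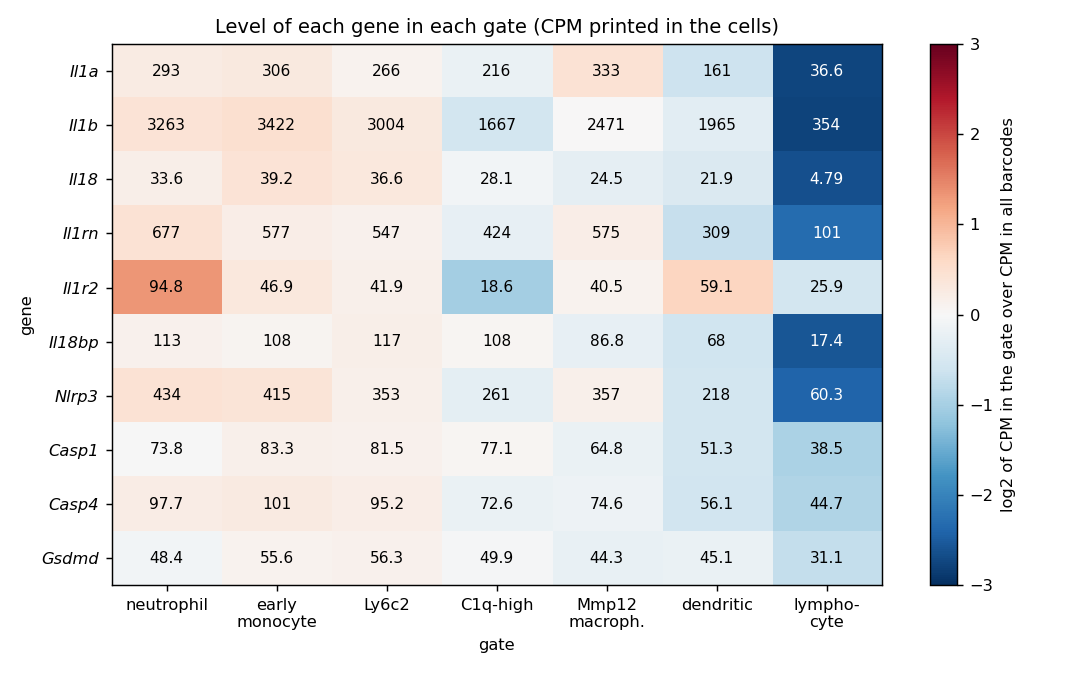
Level of each of the 10 genes (vertical axis) in the 7 gates (horizontal axis), printed as counts per 1000000 UMIs and colored by the log2 ratio to the level in all barcodes. The lymphocyte column is lowest for 9 of the 10 genes, and Il1r2 is the gene with the strongest contrast between the S100a9/G0s2 gate (neutrophil, 94.8) and the C1q-high gate (18.6).

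Among the agonists, Il1b was abundant in every myeloid gate. Its level was 3422 CPM in the early monocyte gate (libraries 3019 to 3823, median 3404), 3263 CPM in the S100a9/G0s2 gate (2831 to 3848, median 3166) and 3004 CPM in the Ly6c2 gate (2564 to 3826, median 2965). These 3 gates overlapped in their library ranges and are not set apart. The Mmp12 macrophage gate was at 2471 CPM (2197 to 2781), the dendritic gate at 1965 CPM (1484 to 2575) and the C1q-high gate at 1667 CPM (1018 to 1941). Every library of the C1q-high gate was thus below every library of the early monocyte, S100a9/G0s2 and Ly6c2 gates, and the fold of the C1q-high gate against all other barcodes was 0.55, with libraries from 0.40 to 0.64. The lymphocyte gate was at 354 CPM (226 to 566).

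The share of barcodes with an Il1b UMI was compared after thinning each barcode to 1000 UMIs. It was 86.0% (95% interval 83.5 to 88.3) in the S100a9/G0s2 gate, 75.0% (73.4 to 76.7) in the early monocyte gate, 65.7% in the Ly6c2 gate, 65.1% in the Mmp12 macrophage gate, 57.7% in the dendritic gate and 51.5% (49.7 to 53.3) in the C1q-high gate. The lymphocyte gate, which should lack the gene, gave 12.2% (10.0 to 14.8), with libraries from 9.09 to 21.4%. All myeloid shares were above it, and the lowest share in a library of these gates was 39.6%, in the C1q-high gate. Without thinning the shares were 99.9% in the S100a9/G0s2 gate, at a median of 20005 UMIs, and 27.4% in the lymphocyte gate, at 6953. Single barcodes carried up to 443 Il1b UMIs.

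Il1a, the agonist that needs no caspase-1 cut to act, was highest in another gate than Il1b. Its level in the Mmp12 macrophage gate was 333 CPM (libraries 173 to 444, median 326), the highest of the 7 gates, against 306 CPM in the early monocyte gate (144 to 362), 293 CPM in the S100a9/G0s2 gate (103 to 369) and 266 CPM in the Ly6c2 gate (116 to 301). The library ranges of these gates overlapped. Within libraries, the fold of the Mmp12 macrophage gate against its own remaining barcodes ran from 1.30 to 1.98, above 1 in each of the 6, and the pooled fold was 1.59. Among barcodes with at most 1 UMI of Csf1r and Adgre1 the order differed, with 441 CPM in the S100a9/G0s2 gate (72 barcodes), 435 CPM in the early monocyte gate (177) and 396 CPM in the Mmp12 macrophage gate (181). Among barcodes that met exactly 1 gate, the Mmp12 macrophage gate was again highest, at 369 CPM (libraries 168 to 636). The early monocyte gate was then at 296 CPM and the S100a9/G0s2 gate at 187 CPM. The C1q-high gate was at 216 CPM (73.6 to 280) and the lymphocyte gate at 36.6 CPM (9.63 to 61.2). Il1a was also concentrated in few barcodes, since the 10% of barcodes with the most Il1a held 66.2% of its UMIs, against 42.6% for Il1b.

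The balance of the 2 agonists was measured as Il1a UMIs among Il1a and Il1b UMIs. It was 11.9% in the Mmp12 macrophage gate (95% interval 11.7 to 12.1) and 11.5% in the C1q-high gate (11.3 to 11.7), against 8.13 to 8.25% in the S100a9/G0s2, early monocyte and Ly6c2 gates. Libraries varied more than these intervals, from 7.28% in suffix 5 to 14.2% in suffix 7 in the Mmp12 macrophage gate.

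Il18, whose product drives interferon-γ in T and NK cells together with IL-12, was the least abundant ligand. Its level was 39.2 CPM in the early monocyte gate (libraries 28.1 to 45.7, median 40.0), 36.6 CPM in the Ly6c2 gate (24.4 to 44.0), 33.6 CPM in the S100a9/G0s2 gate (14.0 to 39.4) and 28.1 CPM in the C1q-high gate (25.3 to 33.3). Library ranges overlapped between all neighbours in this order of myeloid gates. In the lymphocyte gate it was 4.79 CPM (0 to 7.81), and after thinning 0 of 760 barcodes had an Il18 UMI, with an upper limit of 0.484% that holds for this depth only. Without thinning 3.50% had one. The early monocyte share was 4.48% and the C1q-high share 3.08%.

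Among the inhibitors, Il1rn was high in the same gates as its agonists. It was 677 CPM in the S100a9/G0s2 gate (libraries 395 to 1014, median 589), 577 CPM in the early monocyte gate (399 to 769), 575 CPM in the Mmp12 macrophage gate (415 to 857), 547 CPM in the Ly6c2 gate (392 to 757) and 424 CPM in the C1q-high gate (332 to 525). All 5 ranges overlapped. The dendritic gate was at 309 CPM (197 to 476) and the lymphocyte gate at 101 CPM (40.6 to 174).

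Il1b UMIs outnumbered Il1rn UMIs in every gate. Il1b made up 85.6% of the pair in the early monocyte gate (libraries 80.4 to 88.3), 84.6% in the Ly6c2 gate (78.5 to 88.1), 82.8% in the S100a9/G0s2 gate (78.9 to 87.8), 81.1% in the Mmp12 macrophage gate (76.4 to 84.1) and 79.7% in the C1q-high gate (72.8 to 83.6). Suffix 6 gave the lowest share in each of the 7 gates.

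**Figure D2:**
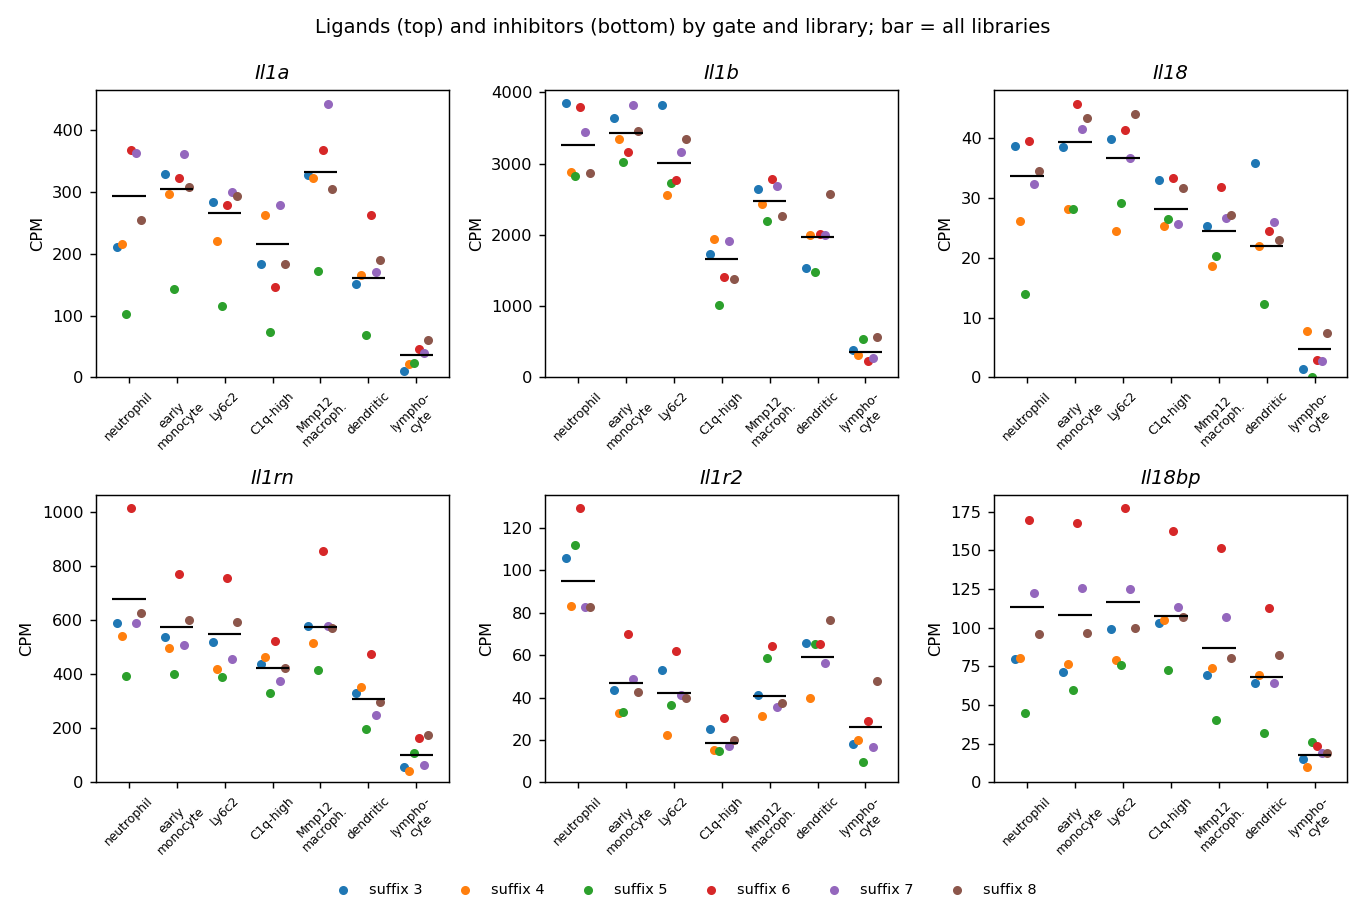
Levels of the ligands Il1a, Il1b and Il18 and of the inhibitors Il1rn, Il1r2 and Il18bp (vertical axes, counts per 1000000 UMIs) in each gate, with a dot for each of the 6 libraries and a bar for all libraries together. Il1r2 in the S100a9/G0s2 gate (neutrophil) runs from 82.8 to 129, above every library of the 6 other gates, although not when barcodes of more than 1 gate are left out, whereas Il1rn ranges overlap between the gates of monocytes and macrophages.

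Il1r2, the decoy receptor that binds IL-1 without signaling, was the member with the largest ratio between the highest and the lowest of the 6 myeloid gates. With the lymphocyte gate included, the ratio of Il1b (9.65) and of 5 other members was larger than that of Il1r2 (5.09). In the S100a9/G0s2 gate its level was 106, 83.1, 112, 129, 82.8 and 82.8 CPM in suffixes 3 to 8. All 6 values lay above all libraries of the 6 other gates, of which the next was the dendritic gate at 59.1 CPM (libraries 39.6 to 76.7). The gates did not stand apart in this way among barcodes that met exactly 1 gate. There Il1r2 was 127 CPM in 67 barcodes of the S100a9/G0s2 gate (libraries 51.2 to 274, fold 3.42) and 124 CPM in 118 barcodes of the dendritic gate (61.6 to 194, fold 3.38), with 73.7 CPM in the Mmp12 macrophage gate. Barcodes of no gate were at 61.8 CPM, with 5 libraries from 39.8 to 63.0 and suffix 4 at 120.3. The pooled level of 94.8 CPM in the S100a9/G0s2 gate was 3.36-fold that of all other barcodes, with within-library folds from 3.01 to 3.71. The early monocyte (46.9 CPM), Ly6c2 (41.9 CPM) and Mmp12 macrophage (40.5 CPM) gates followed with overlapping library ranges. In the C1q-high gate it was 18.6 CPM (14.7 to 30.3), a fold of 0.35 with libraries from 0.27 to 0.51. The lower call ended in the 154 C1q-high barcodes with at most 1 UMI of Csf1r and Adgre1, at 29.7 CPM from 18 UMIs, a fold of 0.79 that was above 1 in 3 of 6 libraries.

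The share of barcodes with an Il1r2 UMI after thinning was 11.3% (9.27 to 13.6) in the S100a9/G0s2 gate and 6.71% (4.30 to 9.89) in the dendritic gate. In the C1q-high gate it was 1.92% (1.46 to 2.48), no higher than the 2.11% (1.21 to 3.40) of the lymphocyte gate. That gate is no plain background for Il1r2, since some of its barcodes carried the gene (below), and no expression in C1q-high barcodes is read from this share. The S100a9/G0s2 gate held 14.3% of all UMIs and 36.0% of Il1r2 UMIs. Il1r2 was the most unevenly spread member, with 83.7% of its UMIs in the 10% of barcodes that carried the most, against 28.0% for UMIs of all genes.

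Il1r2 was also compared between barcodes with few and with more macrophage transcripts. In the 72 barcodes of the S100a9/G0s2 gate with at most 1 UMI of Csf1r and Adgre1 (median 7581 UMIs) it was 226 CPM, a fold of 6.11, against 91.0 CPM in the remaining 785. In the same 72 barcodes Il1b was 6401 CPM (fold 2.64), Il1rn 1090.1 CPM (2.19) and Nlrp3 685 CPM (2.15). Thus 4 members passed the 2-fold rule there, as did 185 of 12305 genes tested. In the 67 barcodes that met this gate only, the folds of Il1b, Il1rn and Nlrp3 were 1.25, 1.41 and 1.37. Only Il1r2 was called higher in those 67, beside 0.593% of all genes. The 72 barcodes came to as few as 3 in a library, and Il1r2 ran from 168 to 720 CPM, higher than in the remaining barcodes of the matrix in each of the 6 libraries. In the dendritic gate the corresponding split gave 89.7 CPM of Il1r2 in 134 barcodes and 51.8 CPM in 210. The libraries were split, with Il1r2 higher in the 134 barcodes in 4 libraries and lower in suffixes 5 (29.7 against 80.9 CPM) and 6 (8.80 against 85.5 CPM). In the same split Il1rn was 113 against 356 CPM and Nlrp3 87.6 against 249 CPM, lower in each of the 6 libraries. In the Ly6c2 gate Il1r2 was 38.2 CPM in the 689 barcodes with at most 1 such UMI, against 41.9 CPM in the whole gate. These 689 include the 271 barcodes that also met the lymphocyte gate. Il1r2 was 25.9 CPM in the whole lymphocyte gate, and the part of the 271 barcodes was not tested.

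Within the lymphocyte gate, Il1r2 was uneven as well. Barcodes with a UMI of Foxp3, the transcription factor of regulatory T cells, numbered 47, from 2 to 13 per library, and had 92.3 CPM of Il1r2 (95% interval 63.2 to 130, from 32 UMIs), against 22.6 CPM in the 724 without. The libraries were at 0, 20.5, 48.7, 91.2, 113 and 193 CPM when put in ascending order, so the value rests on few barcodes, and it was higher than in the other lymphocyte barcodes in 5 of 6 libraries. The pooled levels of Il1b (684 against 338 CPM), Il1a (72.1 against 34.8), Il1rn (153 against 98.2) and Nlrp3 (98.1 against 58.4) were also higher in the 47 barcodes, but each was lower there in suffixes 3, 5, 6 and 7 and higher in suffixes 4 and 8. The part of myeloid transcripts was not tested. Barcodes with Cd3e and no Ncr1 had 45.3 CPM and those with Ncr1 and no Cd3e, a gene of NK cells, 7.44 CPM. These splits were made after seeing the data.

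Il18bp, the secreted inhibitor of IL-18, exceeded its ligand in UMIs in every gate. It was 117 CPM in the Ly6c2 gate (libraries 75.8 to 177, median 99.4), 113 CPM in the S100a9/G0s2 gate (45.1 to 170), 108 CPM in the early monocyte gate (59.8 to 167) and 108 CPM in the C1q-high gate (72.8 to 162). These ranges overlapped. Unlike Il1b, the pooled level of Il18bp was not below the outside level in the C1q-high gate, where its fold was 1.08 with libraries from 0.95 to 1.94. Of Il18 and Il18bp UMIs together, Il18bp made up 73.4% in the early monocyte gate and 79.3% in the C1q-high gate, the extremes of the 7 gates, and the libraries spread over 73.3 to 83.0% in the C1q-high gate.

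The inflammasome sensor Nlrp3 was high in the gates where Il1b was highest, but its lowest myeloid gate was the dendritic gate and not the C1q-high gate. It was 434 CPM in the S100a9/G0s2 gate (libraries 306 to 516, median 420), 415 CPM in the early monocyte gate (308 to 469, median 419), 357 CPM in the Mmp12 macrophage gate (275 to 405), 353 CPM in the Ly6c2 gate (263 to 427), 261 CPM in the C1q-high gate (169 to 297) and 218 CPM in the dendritic gate (142 to 279). Every library of the C1q-high gate lay below every library of the S100a9/G0s2 and early monocyte gates. In the lymphocyte gate it was 60.3 CPM (34.4 to 171). The share with a UMI after thinning was 35.7% (32.5 to 39.0) in the S100a9/G0s2 gate, 20.6% (19.1 to 22.1) in the C1q-high gate and 5.66% (4.12 to 7.55) in the lymphocyte gate. Libraries ran from 29.6 to 39.5%, from 14.4 to 24.5% and from 3.27 to 12.9% in these gates.

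**Figure D3:**
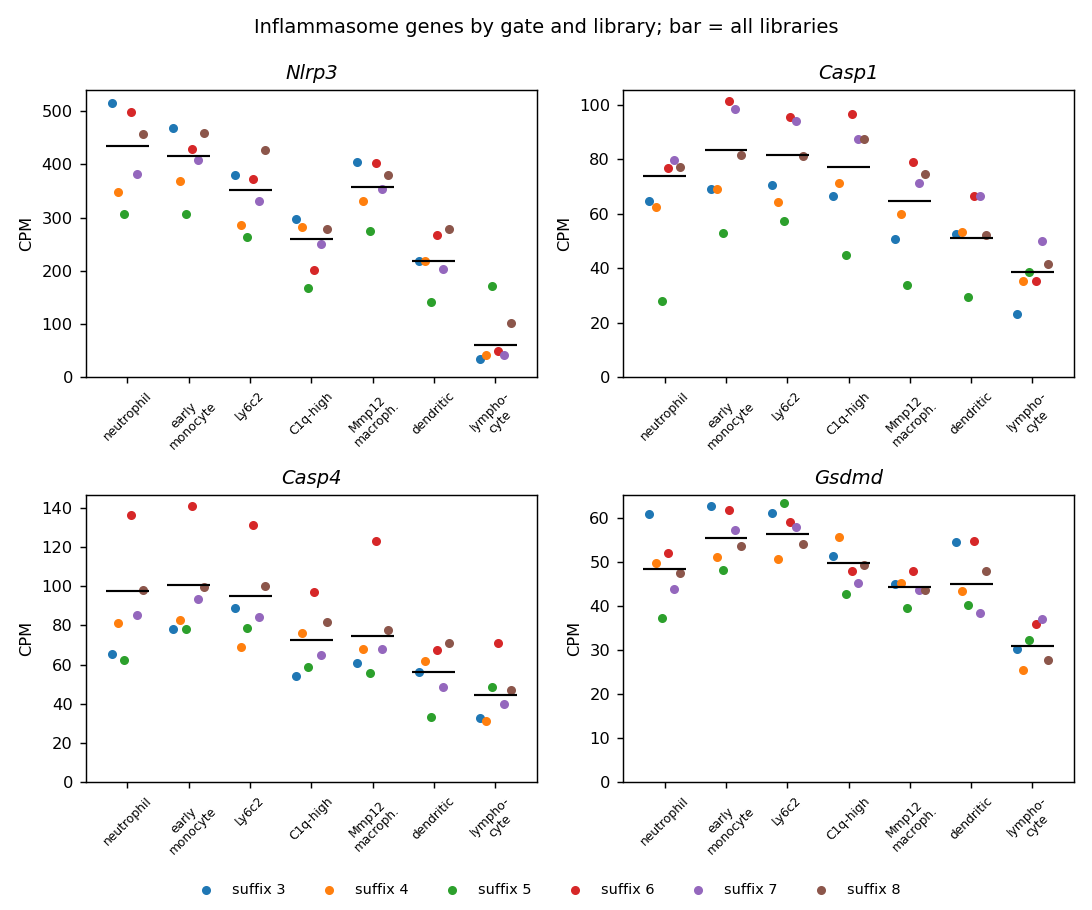
Levels of Nlrp3, Casp1, Casp4 and Gsdmd (vertical axes, counts per 1000000 UMIs) in each gate, with a dot for each of the 6 libraries and a bar for all libraries together. Nlrp3 spans 60.3 to 434 between the lymphocyte and the S100a9/G0s2 gate (neutrophil), whereas Gsdmd spans 31.1 to 56.3 between the lymphocyte and the Ly6c2 gate.

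The caspases and gasdermin D were more even. Casp1 was 83.3 CPM in the early monocyte gate (libraries 53.0 to 101, median 75.3), 81.5 CPM in the Ly6c2 gate (57.4 to 95.3), 77.1 CPM in the C1q-high gate (44.9 to 96.4), 73.8 CPM in the S100a9/G0s2 gate (28.0 to 79.8), 64.8 CPM in the Mmp12 macrophage gate (34.0 to 79.0) and 51.3 CPM in the dendritic gate (29.5 to 66.4). All neighbours overlapped. Casp4 was highest in the early monocyte gate, at 101 CPM (78.1 to 141), and was 97.7 CPM in the S100a9/G0s2 gate (62.2 to 136) and 72.6 CPM in the C1q-high gate (54.1 to 97.2), again with overlap. Gsdmd, the pore-forming executor, varied least among myeloid gates, from 44.3 CPM in the Mmp12 macrophage gate (39.5 to 48.0) to 56.3 CPM in the Ly6c2 gate (50.7 to 63.4).

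In the lymphocyte gate 6 members were far lower than elsewhere and 4 lay near or above the limit of the rule. Il1a, Il1b, Il1rn, Il18, Il18bp and Nlrp3 had folds of 0.14 to 0.19 against all other barcodes. Casp1 (38.5 CPM, fold 0.503), Casp4 (44.7 CPM, 0.52), Gsdmd (31.1 CPM, 0.59) and Il1r2 (25.9 CPM, 0.67) were not called lower. With the 466 lymphocyte barcodes that met exactly 1 gate, Casp1 (fold 0.42) and Il1r2 (0.47) were called lower too, in each of the 6 libraries, so that 8 of 10 members were, beside 19.8% of all genes. The 5 macrophage markers that define no gate summed to 514 CPM here, with libraries from 288 to 2074, against 3980.0 in all barcodes. After thinning, 2.76% of lymphocyte barcodes had a Casp1 UMI and 2.63% a Gsdmd UMI, against 8.26% and 5.40% in the early monocyte gate. The part of free RNA in these levels was not tested.

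The other genes of the pathway were taken from a list of 36, of which 32 were in the matrix and 31 had at least 100 UMIs. By the same rule as above, 1 of 31 was higher in the S100a9/G0s2 gate (0.780% of all genes were), namely Il1rap, the accessory chain shared by the IL-1 and IL-33 receptors and also bound by the IL-1R2 decoy. It was 36.1 CPM there (libraries 24.6 to 52.3) against 13.4 CPM outside, a fold of 2.70 with libraries from 1.68 to 3.24. In the early monocyte and Ly6c2 gates 1 of 31 was higher (0.748% and 1.27% of all genes), in both cases Mefv, which encodes the inflammasome sensor pyrin, at 50.5 CPM (29.1 to 71.5, fold 2.53) and 45.9 CPM (25.1 to 62.6, fold 2.46). Mefv was lower in the C1q-high gate, at 15.3 CPM with a fold of 0.35, along with Il1r1, Il18r1, Il18rap, Sigirr and Il33, so 6 of 31 were lower there, beside 6.62% of all genes. In the dendritic gate 0 of 31 were higher or lower (4.33% and 2.71% of all genes), and likewise in the Mmp12 macrophage gate (0.390% and 0.577%). Il1r1, the signaling IL-1 receptor, had 217 UMIs in the whole matrix (1.54 CPM), whereas Pycard, the ASC adaptor that links sensors to caspase-1, was at 212 CPM.

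The lymphocyte gate held the receptor side of IL-18. Il18r1, its ligand-binding chain, was 118 CPM (libraries 68.2 to 187, median 124) against 16.7 CPM outside, a fold of 7.06. Il18rap, the accessory chain, was 139 CPM (87.0 to 239, median 130) against 30.6 CPM, a fold of 4.54. In each of the 6 libraries both chains were higher inside than outside the gate, while Il18 was lower. The same gate was higher for Il1rl1, the IL-33 receptor (23.7 CPM, fold 3.91), for Sigirr, a negative regulator of IL-1 receptors (34.7 CPM, 5.60), and for Il33 (2.88 CPM, 4.21, from 21 UMIs), so 5 of 31 genes were higher and 13 were lower, among them Pycard, Myd88, Irak3 and Nlrp1b, beside 12.0% and 18.7% of all genes tested. Markers of mast cells and basophils, some of which express Il1rl1, summed to 103 CPM in this gate (libraries 10.8 to 510) against 15.4 CPM in all barcodes, and their part in the Il1rl1 level was not tested. Il18rap was 164 CPM in barcodes with Ncr1 and no Cd3e and 112 CPM in those with Cd3e and no Ncr1, whereas Il18r1 was 108 and 128 CPM, lower with Ncr1 in 4 of 6 libraries, and Il1rl1 was 4.01 and 42.4 CPM.

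**Figure D4:**
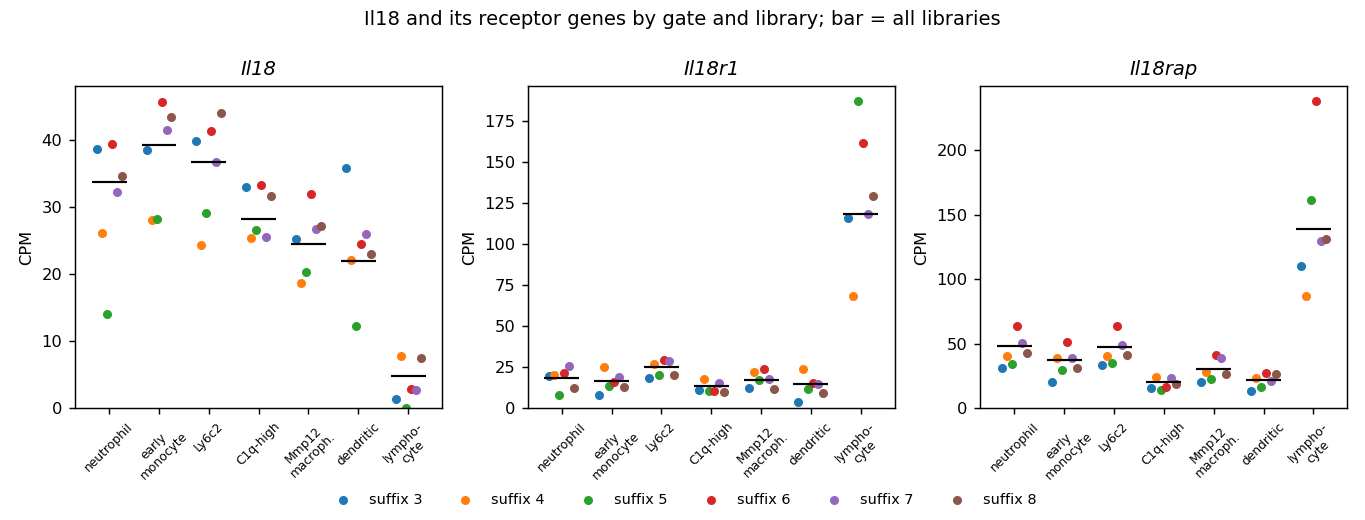
Levels of Il18, Il18r1 and Il18rap (vertical axes, counts per 1000000 UMIs) in each gate, with a dot for each of the 6 libraries and a bar for all libraries together. Both receptor genes are highest in the lymphocyte gate, at 118 and 139, where the ligand Il18 is at 4.79.

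Because the gates overlap, the members were also followed along 2 marker levels, in bins chosen after seeing the data. Barcodes with Csf1r and without Cd3e or Ncr1 were split by C1q counts into bins below 5, 5 to 20, 20 to 60, 60 to 120 and at least 120 per 10000 UMIs, which held 2115, 364, 852, 1322 and 821 barcodes. Their median depth was 8836, 10302, 12062.5, 16987.5 and 17302 UMIs, so depth moved with C1q, and its part was not tested. Il1b was 5411, 3367, 2431, 1894 and 1634 CPM across the bins. Il1r2 was 79.9, 55.5, 36.5, 22.2 and 10.8 CPM, and Nlrp3 was 547, 437, 360.1, 314 and 217 CPM. In every library the top bin was below the bottom bin for each of these 3 genes, with Il1r2 at 57.7 to 138 CPM in the lowest bin and 5.83 to 13.6 CPM in the highest. The share of all genes with such a fall was not computed, so it is not read as particular to the members.

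Il18bp, Casp1 and Gsdmd did not fall at every step. Il18bp was 120.2, 128, 127, 95.0 and 135 CPM, Casp1 98.1, 78.2, 71.5, 75.9 and 93.1 CPM, and Gsdmd 72.3, 53.5, 48.0, 47.4 and 57.6 CPM. The top bin of these 3 genes lay above the 3 middle bins, and that of Gsdmd was below its bottom bin in each of the 6 libraries. Libraries differed for Il18bp, whose top bin was above the bottom bin in 4 libraries and below it in suffixes 6 and 7. Il1rn, at 776, 647, 595, 492 and 390.2 CPM, moved down with C1q but less than Il1b. Il1a was 436, 317, 240, 245 and 208 CPM, and in each of the 6 libraries the top bin was below the bottom bin for both genes. Casp4 (127 to 77.9 CPM between the end bins) was also lower in the highest bin, and Il18, at 49.5, 29.1, 31.6, 28.1 and 32.6 CPM, was like Gsdmd in that its top bin lay above its middle bins.

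**Figure D5:**
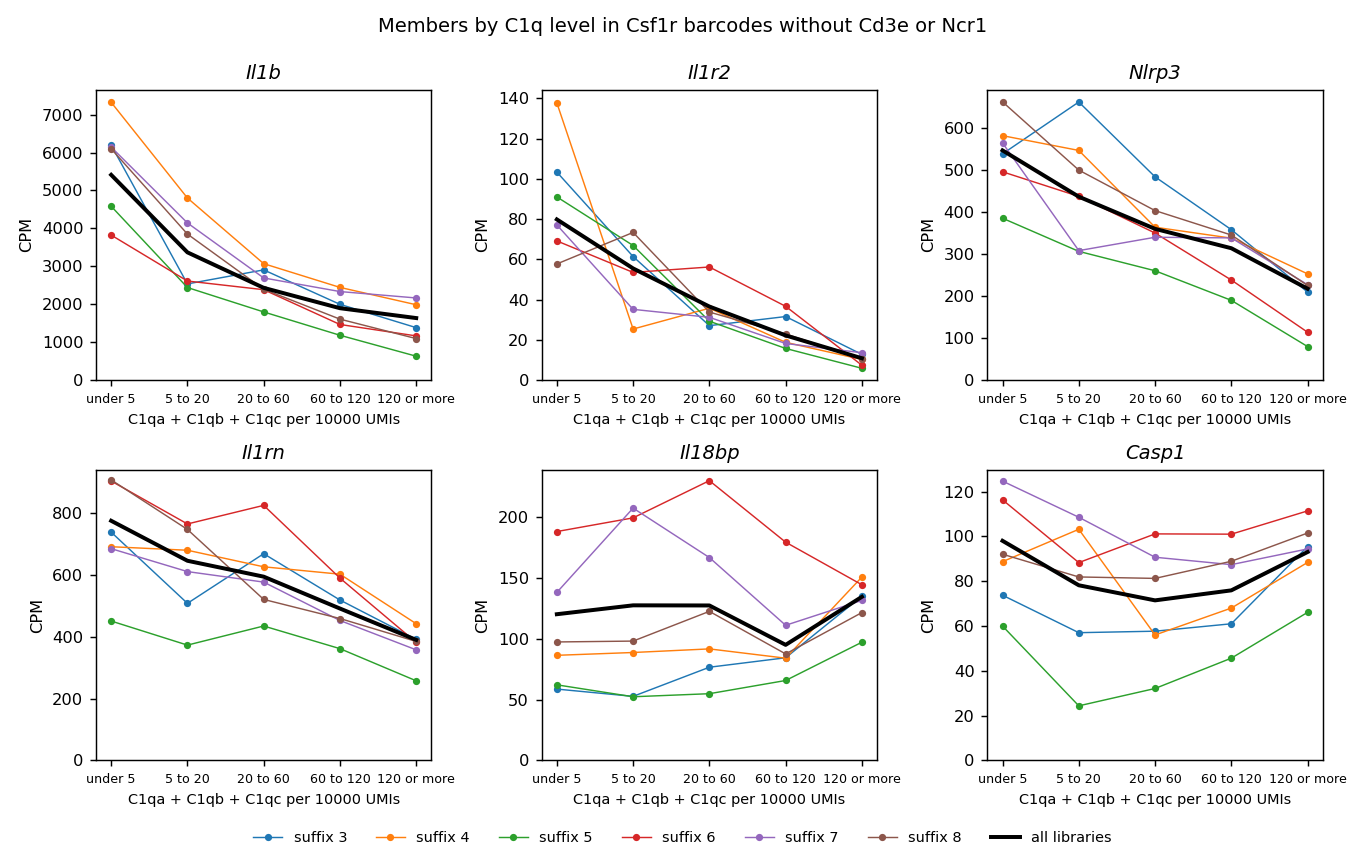
Levels of Il1b, Il1r2, Nlrp3, Il1rn, Il18bp and Casp1 (vertical axes, counts per 1000000 UMIs) in 5 bins of C1q counts per 10000 UMIs (horizontal axis), with thin lines for the 6 libraries and a thick line for all libraries together. Il1b goes from 5411 to 1634 and Il1r2 from 79.9 to 10.8 between the first and the last bin, while Il18bp ends at 135 after starting at 120.2.

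Inside the S100a9/G0s2 gate, barcodes were split by S100a9 into bins below 5, 5 to 15, 15 to 45 and at least 45 per 10000 UMIs, with 97, 224, 319 and 217 barcodes. Their median depth was 29960, 22549.5, 20875 and 13634 UMIs, so depth moved with S100a9, and its part was not tested. Il1r2 was 48.2, 65.8, 101 and 174 CPM across these bins, and Il1b was 2003, 2673, 3397 and 5154 CPM. Every library had more Il1r2 and more Il1b in the top than in the bottom bin. The share of all genes with such a rise was not computed. Nlrp3 was 346, 387, 438 and 588 CPM, with suffix 3 as an exception, where it was 703 CPM in the lowest bin and 551 CPM in the highest. The lowest and the highest bin held as few as 6 barcodes in a library. Gsdmd stayed between 45.8 and 50.3 CPM across the 4 bins.

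For each member, the 3 genes with the most similar pattern were sought over 42 sums, 1 for each gate and library, by Pearson correlation of log2(CPM + 1) among genes with at least 100 UMIs. The sums share barcodes between gates and depth within libraries, so the values are descriptions with no test. They include the sums of the lymphocyte gate, where 6 members had folds of 0.14 to 0.19 against all other barcodes. The part of this contrast in the correlations was not tested. Il1b was closest to Ptgs2 (r = 0.96), which encodes the prostaglandin synthase COX-2, followed by Marcksl1 and by its fellow member Nlrp3 (both 0.95). Il1a was closest to Tnf (0.95) and to the chemokine gene Cxcl2 (0.94), and Nlrp3 to Marcksl1 (0.97), Rab20 and Cxcl2. Il1rn was closest to Lilr4b (0.98), Bst1 and Tgm2, and Il18 to Trim30d (0.95), Ift172 and Sirpb1b. Il18bp had Cfb and Gbp2b (both 0.96) and Blvrb as its closest genes, and Casp4 had Rtp4 (0.94), Slfn2 and Parp14, lists that hold the interferon-induced genes Gbp2b, Rtp4 and Parp14. The best values were lower for Casp1 (Serpina3g, 0.90), Gsdmd (Cers6, 0.87) and Il1r2 (N4bp2, 0.84). Among members, the highest correlation was that of Il1b with Nlrp3 (0.95) and the lowest that of Il1r2 with Casp1 (0.16).

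The libraries differed in level. Over all barcodes, suffix 5 was lowest for 8 of 10 members, including Il1a (109 CPM, against 303 in suffix 7), Il18bp (58.0 CPM) and Casp1 (42.9 CPM). Suffix 6 was highest for 7 of 10, including Il1rn (716 CPM, against 365 in suffix 5), Il18bp (167 CPM), Il1r2 (54.0 CPM) and Casp4 (125 CPM, against 61.6 in suffix 5). The shares of all genes that were lowest in suffix 5 or highest in suffix 6 are not given here. These counts are therefore not read as a trait of the members. A like order of the members was seen inside the gates. Suffix 6 was highest within 6 of 7 gates for Il1rn, Il18bp and Casp4, and suffix 5 was lowest within 6 of 7 gates for Il1a, Il1rn, Il18bp, Nlrp3 and Casp1. Rtp4, an interferon-induced gene that was most similar to Casp4, was 206 CPM in suffix 6 against 68.9 to 113 CPM in the other libraries, and its part was not tested. Suffix 6 also had the fewest C1q-high barcodes, 174 against up to 805, and suffix 5 the most barcodes of no gate, 519 of 1452. Whether these differences follow the treatment cannot be told from the labels.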

How the data were processed

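Droplet scRNA-seq was available for CD45-positive cells of 6 tumors, 3 per treatment. The authors deposited 1 matrix of raw UMI counts per gene and barcode, without normalization, and all of its columns were used. The submitters' processing notes name Cell Ranger 1.2, Seurat 3.1.5, R 4.0.1 and the mm10 build, with no parameters. How barcodes were filtered before deposit is not given in the sources used here. No barcode was removed and no doublet caller was run.

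Counts were summed over the barcodes of a gate and divided by their total UMIs (CPM). Sums carry exact Poisson intervals and shares exact Clopper-Pearson intervals at 95%. For shares, each barcode was thinned to 1000 UMIs with a fixed seed, which left out 77 barcodes. A gene was called at a fold of at least 2, or at most 0.5, with the same direction within at least 5 of 6 libraries, among 12307 genes with at least 100 UMIs, leaving out the genes that define the gate. Since library suffixes match no label, the comparison of treatments was not run. The fold rule was tested on simulated data before use.

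The members, gates, marker and pathway lists were chosen with earlier results of these data known. Named genes are the members, gate markers, pathway genes called higher in the S100a9/G0s2 or early monocyte gate, and the 3 genes most similar to each member. Other pathway genes were named after their values were seen. Positions come from GENCODE M21 on GRCm38 and promoters from a RefSeq table on GRCm38.p6. Alternatives were other gates, thresholds, references, depths and summaries, and each library left out in turn. Analyses used Python 3.11.15, numpy 2.4.6, scipy 1.17.1, pandas 2.3.3 and matplotlib 3.10.9.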

Additional observations from a re-analysis of the deposited data

Results flagged for a closer look

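For each of the 10 genes and 7 gates, the 6 libraries were searched for 1 value far from the others by Dixon's criterion, which sets the gap to the nearest value against the whole range at the 95% critical value. Of 70 such values, 6 were found, and chance gives about 1 in 20. In the S100a9/G0s2 gate, Il1rn was 1014 CPM in suffix 6, against 395 to 626 CPM in the other 5 libraries. In the same gate Casp1 was 28.0 CPM in suffix 5, against 62.6 to 79.8 CPM. In the early monocyte gate Il1a was 144 CPM in suffix 5, against 297 to 362 CPM, and Casp4 was 141 CPM in suffix 6, against 78.1 to 99.5 CPM. In the Mmp12 macrophage gate suffix 6 stood apart for Il1rn, at 857 CPM against 415 to 579 CPM, and for Casp4, at 123 CPM against 55.8 to 77.5 CPM. All 6 values came from suffixes 5 and 6, low in the former (2 values) and high in the latter (4 values). The gates share barcodes, so these values are not independent of each other, and the treatment of both libraries is unknown.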

How the results depend on the processing

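No paired analysis was possible because the library suffixes match no label, and the comparison of treatments, with its alternatives, was not run. Leaving out each library in turn kept every count of called members within 1.5 times its main value. Of the alternatives for such counts, 198 stayed within that limit and 24 moved. With C1q-high barcodes as the reference, the members called higher numbered 2 in the S100a9/G0s2 gate (1 against all others), 2 in the early monocyte gate and 1 each in the Ly6c2, Mmp12 macrophage and dendritic gates (0 against all others), beside 2.52, 2.96, 6.74, 2.56 and 6.06% of all genes tested. At a fold of 1.5, 3 were higher in the early monocyte gate, 2 in the Ly6c2 gate, 1 in the Mmp12 macrophage gate and 1 in the dendritic gate, while 2 were lower in the C1q-high gate and 4 in the dendritic gate, beside 2.24, 3.92, 1.68, 8.45, 12.3 and 7.91% of all genes. At a fold of 3, 0 were lower in the C1q-high gate (1.87%). With barcodes that meet exactly 1 gate, 1 was higher in the Mmp12 macrophage gate and 1 in the dendritic gate (Il1r2 in both, at folds of 2.04 and 3.38), 2 were lower in the C1q-high gate (Il1r2 at 0.14 and Il1b at 0.47) and 5 in the dendritic gate, beside 1.31%, 4.68%, 984 of 12304 and 17.2% of all genes. With the mean over barcodes of counts per 10000, 1 was higher in the early monocyte gate, 2 were lower in the C1q-high gate and 3 in the dendritic gate, beside 0.731, 8.44 and 6.26%. Without barcodes that held lymphocyte and macrophage genes, 1 was higher in the early monocyte gate (1.01%). With at most 1 UMI of Csf1r and Adgre1, an alternative added after seeing the data, 4 were higher in the S100a9/G0s2 gate, 1 was higher in the early monocyte gate, 0 were lower in the C1q-high gate and 6 were lower in the dendritic gate, beside 185 of 12305 genes and 1.77, 16.1 and 18.5% of all genes. The members lower in the lymphocyte gate numbered 6 to 9 under these alternatives, beside 12.4 to 26.0% of all genes. Of all 70 folds of a member in a gate, 13 lay on the other side of 1 with at most 1 UMI of Csf1r and Adgre1. Of these, 6 were in the Ly6c2 gate (Il1a, Il1rn, Il18, Il18bp, Nlrp3 and Gsdmd). The Ly6c2 barcodes kept there include the 271 that also met the lymphocyte gate. With exactly 1 gate, 8 of the 70 folds crossed 1, and in the Ly6c2 gate only that of Il1r2 did. Il18bp and Gsdmd were highest in the Ly6c2 gate. With at most 1 UMI of Csf1r and Adgre1, their folds there went from 1.27 to 0.61 and from 1.19 to 0.94. With exactly 1 gate these folds were 1.59 (above 1 in 6 of 6 libraries) and 1.21 (5 of 6). With exactly 1 gate, Casp1 was 0.87 in the early monocyte gate, where its fold in the whole gate was above 1 in 6 of 6 libraries. Without the filter on low genes, 19545 genes entered for the S100a9/G0s2 gate and 3.85% were lower, against 0.683% with it. The cause of these changes was not tested. Other values for single members were within the limit in 312 cases, moved in 63 and were reversed in 3. Depth limits the shares of Il18, Il1r2, Casp1 and Gsdmd, since at 1000 UMIs most barcodes have none of these UMIs.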

Other observations

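A small set of barcodes outside the gates' own definitions also carried members of the family. Barcodes with Mcpt8 together with Cpa3, Gata2 or Ms4a2, genes of basophils and mast cells, numbered 44, from 3 to 12 per library, with a median of 3740.5 UMIs. Their Nlrp3 level was 513 CPM over all libraries, against 319 CPM in all barcodes, and their Il1b level was 1776 CPM. Libraries differed widely, with Il1b from 183 CPM in suffix 3 to 9893 CPM in suffix 7, and Nlrp3 from 54.6 CPM in suffix 4 to 2446 CPM in suffix 6 and 2606 CPM in suffix 8, so the pooled values rest on few barcodes. The IL-33 receptor gene Il1rl1 was 145 CPM in this set, against 23.7 CPM in the lymphocyte gate. Of these barcodes, 22.7% had at least 2 UMIs of Csf1r and Adgre1, and the part of macrophage transcripts was not tested.

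Among barcodes of no gate, 485 had neither Csf1r nor Adgre1 UMIs, with a median of 3125 UMIs per barcode. They held 3731 CPM of Il1b, 385 CPM of Il1a and 124 CPM of Il1r2, against 2324, 186 and 47.8 CPM in the other 967 barcodes of no gate. Il1b was higher in the 485 barcodes within each of the 6 libraries, Il1a within 4 of 6 (lower in suffixes 3 and 5) and Il1r2 within 5 of 6. Il1r2 in these 485 barcodes ran from 38.8 CPM in suffix 6 to 203 CPM in suffix 4. These barcodes were grouped after seeing the data, and the labels give them no cell type.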
